A study of Homo sapiens with 24 samples.

Results

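The genes described here are 50 genes of mitosis and of the passage from G2 into mitosis, chosen by symbol from a written list and taken from a table of 18889 genes. They were chosen with earlier results of these data known. All 50 were found, each under 1 gene ID. They were sorted by role into 8 groups, namely a proliferation marker with transcription factors (3 genes), cyclins, CDK1 and CDC25 phosphatases of mitotic entry (6), mitotic kinases with the chromosomal passenger complex (6), the spindle checkpoint with APC/C activation and separase (8), kinetochore and centromere (6), spindle assembly factors and motors (9), midzone and cytokinesis (7), and chromosome condensation with the nuclear lamina (5). Their RNA was measured by RNA-Seq in 24 cultures of 3 human estrogen receptor-positive (ER+) breast cancer cell lines, which were HCC1500, ZR-75-30 and MDA-MB-175. To model hyperglycemia, each line was held for 48 hours in medium with 25 mM glucose (high), and the control cultures in medium with 5 mM glucose (low), with 4 cultures in each of the 6 groups. According to the study's methods, cells of all groups were first conditioned in low glucose medium and the media held no serum, and the labels name no osmotic control for these samples. Each line is a cultured line without stroma, blood supply or immune cells. The labels do not say whether the 4 cultures of a group were grown on separate days or from separate passages, so p-values measure the spread between these cultures, which may be technical.

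As a cell leaves G2, cyclin B bound to the kinase CDK1 drives entry into mitosis once CDC25 phosphatases have removed inhibitory phosphates from CDK1. Kinetochores then attach chromosomes to spindle microtubules, the spindle checkpoint holds the anaphase-promoting complex (APC/C) inactive until attachment is complete, and separase, freed from securin, cuts cohesin so that sister chromatids part. Transcripts of these genes rise late in the cell cycle under the factors FOXM1 and B-MYB and are low in cells that have left the cycle, which is why they are widely read as proliferation genes in breast cancer.

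Values are normalized read counts as deposited. Within a sample, all values were whole reads over 1 common factor, and the samples held 9140024 to 17998819 reads. The detection floor was set at 3 reads, which were worth 0.953 to 2.29 depending on the sample, and each of the 50 genes had at least 18 reads in every sample, so that none was near the floor. HCC1500 high glucose replicate 3, called HG3 below, stood apart from its group. Its values summed to 7319781, against 5559394 to 5716906 in the other 7 HCC1500 samples, and 25 of the 50 genes lay more than 0.5 log2 units from the mean of the other 3 high glucose cultures, against at most 1 of the 50 in any of the other 23 samples compared with their own groups. HG3 is kept in the values given for HCC1500, and changes, counts and medians without it are given beside them. Among markers of luminal breast epithelium, all 9 were detected in every sample, although the adhesion gene CDH1 was at only 49 to 62 in ZR-75-30 against at least 5447 in the other lines. In ZR-75-30 the summed luminal level was 71187 to 75821 in low glucose cultures and 49905 to 56656 in high glucose ones, and in MDA-MB-175 it overlapped between conditions (74605 to 85060 and 73565 to 79643). In HCC1500 it was 44858 to 46793 at low glucose and 40343 to 66111 at high glucose, where it was 40343 to 40772 without HG3 and so below all low glucose cultures. Of the 9 luminal genes, 1 was called lower and 0 higher in HCC1500 (6 and 3 without HG3), 6 and 1 in ZR-75-30, and 5 and 1 in MDA-MB-175. Of all genes tested, 13% were called lower and 7.46% higher in HCC1500 (37.7% and 20.9% without HG3). The shares were 22.7% and 23.4% in ZR-75-30 and 13.7% and 11.9% in MDA-MB-175. In HCC1500 the low glucose libraries were also deeper, with 13190982 to 17998819 reads against 9423472 to 12140912. Of 12 basal, stromal, endothelial and leukocyte markers, 7 were in the table, and KRT5, KRT14, PECAM1, PTPRC and CD3E were not analysed here. The summed level of the 7 was 241 to 266 at low and 186 to 261 at high glucose in HCC1500 (186 to 225 without HG3), 109 to 129 and 87 to 105 in ZR-75-30, and 132 to 159 and 134 to 152 in MDA-MB-175. Most of it was the collagen gene COL1A1, at 67.1 to 256, while the stromal genes DCN and PDGFRB were at most 2.03 and 1.56. CD14, a monocyte marker, rose in HCC1500 from 1.79 ± 1.21 to 15 ± 8.34 (SD, n = 4, adjusted p from limma = 0.00497), or to 11.1 ± 3.64 (n = 3) without HG3. Its low glucose level was close to the floor of 3 reads, worth 0.953 to 1.29 in those samples, so the size of this rise is uncertain. The endothelial gene VWF changed by -0.48 in MDA-MB-175 (adjusted p = 0.00927). The part of these markers and of depth in the results was not tested.

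Mitosis genes were lower at high glucose in all 3 lines, by little in MDA-MB-175 and by most in HCC1500. In MDA-MB-175, 49 of the 50 genes fell (limma on log2(value + 1), Benjamini-Hochberg adjusted p under 0.05 over all genes, referred to as called), where 13.7% of all 17029 genes tested were called lower. In ZR-75-30 all 50 fell, where 22.7% of all 15834 genes did. In HCC1500, 48 fell and none rose, where 13% of all 16361 genes were called lower and 7.46% higher. Without HG3, 49 fell and 1 rose, where 37.7% of all 16235 genes were called lower and 20.9% higher. A smaller number of cycling cells and less RNA of these genes per cell cannot be told apart in such cultures.

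HCC1500 had a median log2 change over the 50 genes of -1.57 (-1.60 without HG3), ZR-75-30 of -0.79 and MDA-MB-175 of -0.48, beside medians over all genes of -0.06 (-0.12 without HG3), 0.01 and -0.02. Expressed as the mean level kept at high glucose, the median gene of MDA-MB-175 had 71.7% of its low glucose level, that of ZR-75-30 57.7% and that of HCC1500 33.8% (33% without HG3). No gene of MDA-MB-175 kept less than 50% of its level, whereas 13 did in ZR-75-30 and 43 in HCC1500, with or without HG3. Falls of at least 1 log2 unit that were called numbered 44 for HCC1500 (3.37% of all genes), or 43 without HG3 (4.98%), 12 for ZR-75-30 (2.12%) and 0 for MDA-MB-175 (0.534%). The 4 high glucose cultures all lay below the 4 low glucose cultures for 48 HCC1500 genes (18.7% of all genes), for all 50 of ZR-75-30 (21.1%) and for 48 of MDA-MB-175 (13.9%). Without HG3, 49 did so in HCC1500 (37.1%). Of the 50 genes, 47 were called lower in all 3 lines, where 3.32% of the 14636 genes tested in each line were, and 48 were with HCC1500 taken without HG3 (6.74%).

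**Figure D1:**
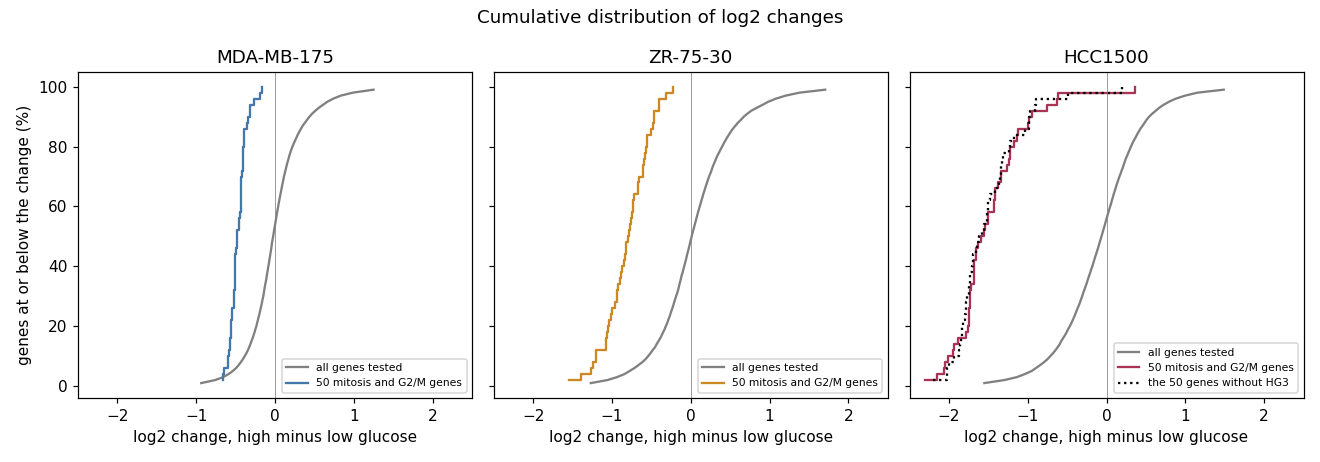
Cumulative share (%) of genes at or below each log2 change (high minus low glucose) in the 3 lines, with gray curves for the 1st to 99th percentile of all genes tested and colored steps for the 50 mitosis and G2/M genes (dotted, HCC1500 without HG3). The colored medians of -0.48, -0.79 and -1.57, from the left panel to the right one, lie left of the gray medians, whereas in MDA-MB-175 the lowest of the 50 genes, at -0.66, does not reach the 1st percentile of all genes, at -0.94.

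Of the reads of MDA-MB-175, the 50 genes together took 0.627% ± 0.0246 (SD, n = 4) in low glucose cultures and 0.453% ± 0.00696 in high glucose ones. Their share went from 0.439% ± 0.00461 to 0.253% ± 0.00639 in ZR-75-30 and from 0.317% ± 0.00232 to 0.12% ± 0.00988 in HCC1500, where it was 0.125% ± 0.00311 (n = 3) without HG3. The range at high glucose did not meet the range at low glucose in any line, with the closest pair in MDA-MB-175 at 0.459% and 0.601%. Since this share is taken within each sample, it does not depend on the factor by which the deposited values were divided.

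**Figure D2:**
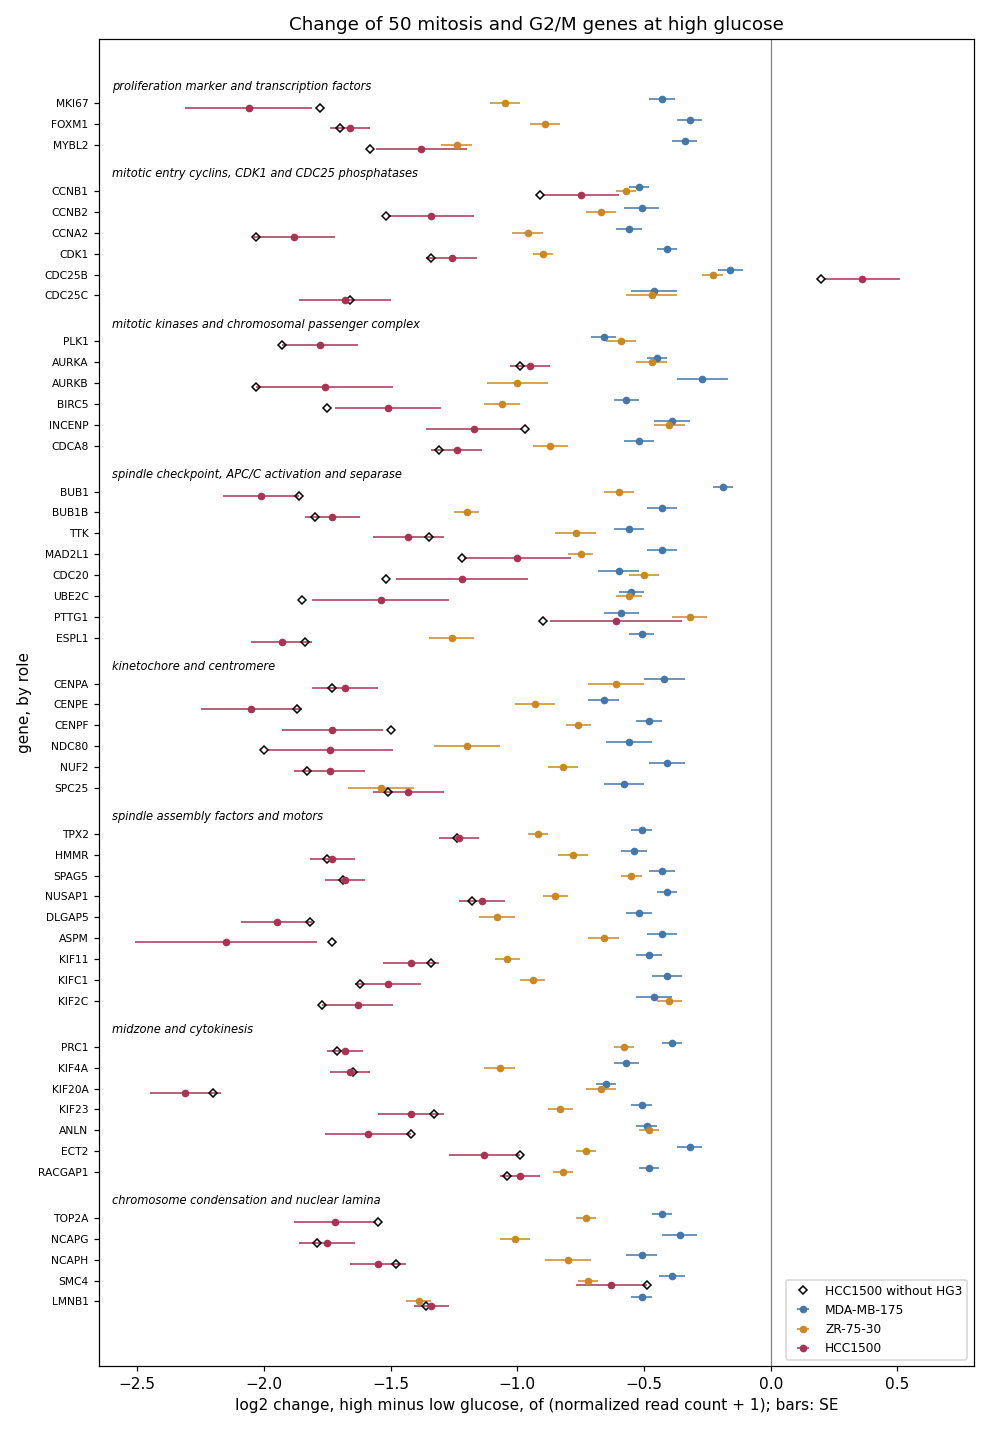
Log2 change (high minus low glucose, horizontal axis) of each of the 50 genes by role, with bars for the standard error, in MDA-MB-175 (blue), ZR-75-30 (orange) and HCC1500 (red), and open diamonds for HCC1500 without HG3. All points lie below 0 except CDC25B in HCC1500, and for most genes the order from left to right is HCC1500, ZR-75-30, MDA-MB-175.

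Among the proliferation marker and the transcription factors, all 3 genes fell in each line. Gene positions are those of GENCODE on GRCh37. MKI67 (ENSG00000148773, chromosome 10, 129894923 to 129924687, minus strand), which encodes the Ki-67 protein of the mitotic chromosome surface and is the usual proliferation marker in breast pathology, read 3049, 3225, 3348 and 3398 in the MDA-MB-175 low glucose cultures and 2232, 2526, 2588 and 2316 at high glucose. In ZR-75-30 it read 1931, 2111, 2043 and 1865 at low and 859, 948, 954 and 1077 at high glucose, and in HCC1500 799, 739, 737 and 769 at low and 231, 224, 98.8 and 210 at high glucose. The conditions did not overlap in any line, and HG3, at 98.8, was the lowest of all. The log2 changes were -0.43 ± 0.05 (SE, adjusted p = 1e-05), -1.05 ± 0.06 (adjusted p = 4.1e-11) and -2.06 ± 0.25 (adjusted p = 8.5e-04), the last becoming -1.78 ± 0.04 (adjusted p = 9.7e-16) without HG3.

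FOXM1 (ENSG00000111206, chromosome 12, 2966846 to 2986340, minus strand), the forkhead factor that activates G2 and M genes, dropped in HCC1500 from 713 ± 20.4 to 225 ± 13.7 (SD, n = 4), in ZR-75-30 from 617 ± 43.1 to 333 ± 23.9 and in MDA-MB-175 from 1154 ± 77.5 to 924 ± 30.1. Its log2 changes of -1.66 (-1.70 without HG3), -0.89 and -0.32 were called in each line (adjusted p at most 1.5e-04), and HG3 read 243 beside 225, 220 and 210 in the other cultures. MYBL2 (ENSG00000101057, chromosome 20, 42295659 to 42345135, plus strand), which encodes B-MYB, averaged 1162 ± 95.4 and then 915 ± 29.9 in MDA-MB-175, 703 ± 27 and then 298 ± 29 in ZR-75-30, and 1210 ± 55.5 and then 477 ± 147 for HCC1500. These are changes of -0.34, -1.24 and -1.38, all called (adjusted p at most 0.00112). HG3 read 698 for MYBL2 where the other cultures read 406, 408 and 396, and without it the change was -1.58.

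**Figure D3:**
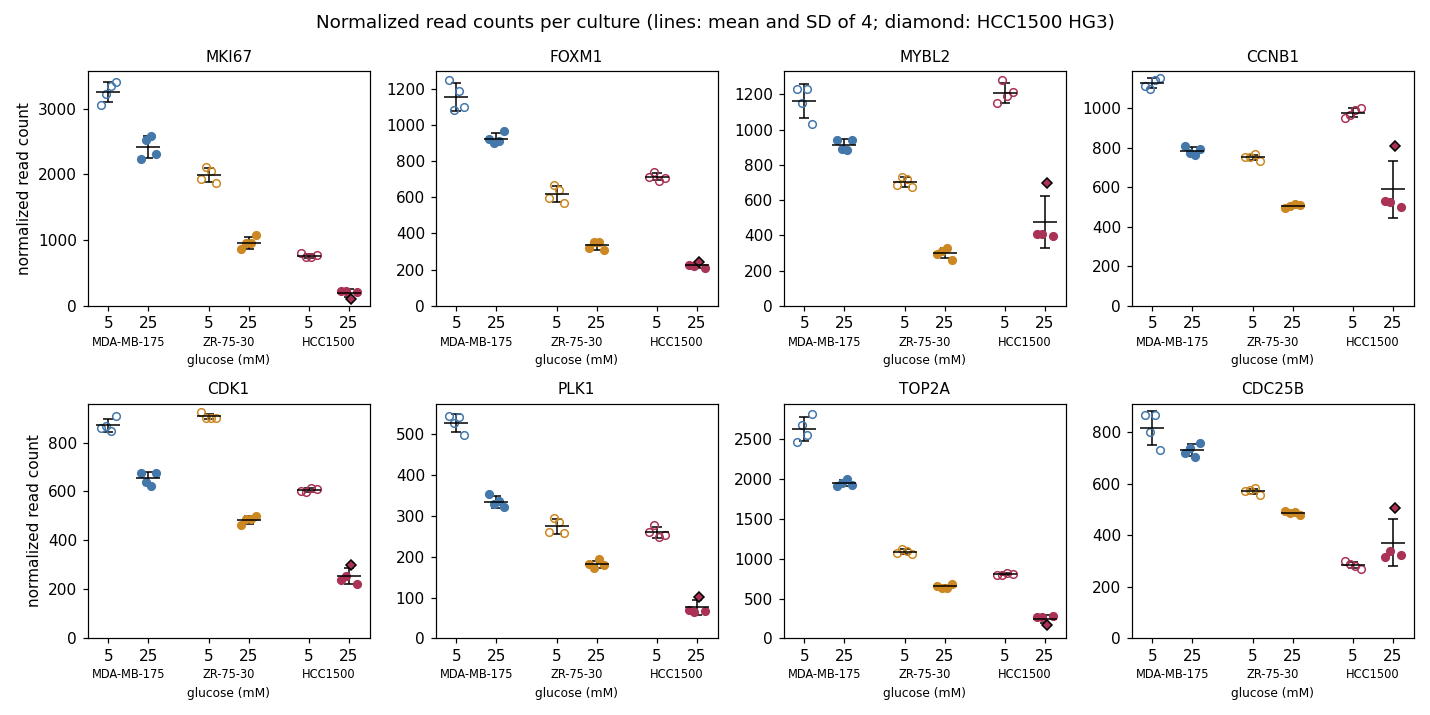
Normalized read counts of 8 genes in the 24 cultures by line and glucose concentration (mM), with open points for 5 mM, filled points for 25 mM, horizontal lines for the mean of 4 cultures and bars for the SD, and a diamond for HG3. High glucose cultures sit below low glucose cultures for MKI67, FOXM1, MYBL2, CCNB1, CDK1, PLK1 and TOP2A in each line, whereas CDC25B overlaps in MDA-MB-175 and is higher at 25 mM in HCC1500.

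All 6 genes of mitotic entry fell in both ZR-75-30 and MDA-MB-175, and 5 did in HCC1500, with CDC25B as the exception. CCNB1 (ENSG00000134057, chromosome 5, 68462962 to 68474072, plus strand), the cyclin B1 subunit of the mitotic CDK1 kinase, had similar falls in MDA-MB-175, from 1128 ± 25.6 to 785 ± 19.5 (SD, n = 4), and in ZR-75-30, from 752 ± 13.4 to 506 ± 7.81. In HCC1500 it went from 978 ± 23.5 to 591 ± 145, with HG3 at 807 beside 529, 528 and 500. The log2 changes were -0.52 ± 0.04, -0.57 ± 0.04 and -0.75 ± 0.15 (SE, adjusted p at most 0.00809), and -0.91 ± 0.03 in HCC1500 without HG3. CDK1 (ENSG00000170312, chromosome 10, 62538089 to 62554610, plus strand), the kinase itself, averaged 871 ± 27.1 and then 653 ± 26.6 in MDA-MB-175, 906 ± 11.4 and then 485 ± 15.4 in ZR-75-30, and 606 ± 8.03 and then 254 ± 32.5 for HCC1500, which are log2 changes of -0.41, -0.90 and -1.26 (-1.34 without HG3), all called. CCNA2, the A-type cyclin that acts before and during mitotic entry, had larger falls than the B-type cyclins in each line, at -0.56, -0.96 and -1.88 (-2.03 without HG3), a comparison of estimates that was not tested. CCNB2, the second B-type cyclin, changed by -0.51, -0.67 and -1.34 (-1.52 without HG3). CDC25C, a phosphatase that activates CDK1, changed by -0.46, -0.47 and -1.68 (-1.66 without HG3), so that MDA-MB-175 and ZR-75-30 were alike in the estimate and HCC1500 stood lower (difference from each -1.21 ± 0.17, adjusted p at most 2.2e-05, or -1.19 without HG3).

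CDC25B (ENSG00000101224, chromosome 20, 3767419 to 3786768, plus strand), the phosphatase thought to start CDK1 activation at centrosomes, had the smallest fall in both other lines and the only higher level in HCC1500. The low glucose cultures of MDA-MB-175 read 866, 800, 867 and 731 and the high glucose cultures 720, 740, 705 and 757, which overlap. Those of ZR-75-30 read 571, 574, 582 and 557 and then 494, 488, 491 and 479, and those of HCC1500 read 299, 287, 281 and 270 and then 317, 340, 506 and 322. The 4 high glucose cultures of HCC1500 were thus all above its low glucose cultures. The log2 changes were -0.16 ± 0.05 (adjusted p = 0.0431), -0.23 ± 0.04 (adjusted p = 1.5e-04) and 0.36 ± 0.15 (adjusted p = 0.135), and the HCC1500 change was 0.20 ± 0.05 without HG3, which was called (adjusted p = 0.00192). The call in MDA-MB-175 was lost when any of 7 of the 8 cultures was left out (adjusted p = 0.0547 to 0.136). The response of HCC1500 differed from that of MDA-MB-175 by 0.51 ± 0.14 (adjusted p = 0.012) and from that of ZR-75-30 by 0.58 ± 0.14 (adjusted p = 0.00324), which were 0.36 ± 0.07 and 0.42 ± 0.07 without HG3.

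Of the 6 kinase and passenger complex genes, 5 fell in MDA-MB-175 and 6 in each of the other lines. PLK1 (ENSG00000166851, chromosome 16, 23688977 to 23701688, plus strand), Polo-like kinase 1, which acts from mitotic entry to cytokinesis, had one of the largest falls of MDA-MB-175. Its low glucose cultures read 544, 527, 542 and 496 and its high glucose cultures 354, 328, 335 and 320. The log2 change of -0.66 ± 0.05 (adjusted p = 1e-07) was close to that of ZR-75-30, -0.59 ± 0.06, where the means were 274 ± 17.8 and 181 ± 9.04 (SD, n = 4). In HCC1500 PLK1 went from 260 ± 12.5 to 75.8 ± 17.4, with HG3 at 102 and the others at 64.2 to 69.6, a change of -1.78 ± 0.15 (-1.93 ± 0.07 without HG3). AURKB, the kinase of the passenger complex, was the only gene not called in MDA-MB-175. There it read 104, 108, 113 and 91.1 at low and 93.6, 82.4, 73 and 96.7 at high glucose, which overlap, with a log2 change of -0.27 ± 0.10 (adjusted p = 0.0711). It was called without low glucose replicate 4 (adjusted p = 0.0205) or high glucose replicate 4 (adjusted p = 0.0485). It was called in ZR-75-30, where it kept 49.8% of its level (adjusted p = 2.1e-06), and in HCC1500 (-1.76 ± 0.27, or -2.03 ± 0.14 without HG3).

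Other members of that group moved by different amounts. AURKA, which acts at spindle poles, changed by -0.45, -0.47 and -0.95 (-0.99 without HG3) in the order MDA-MB-175, ZR-75-30, HCC1500. BIRC5 encodes survivin, the passenger subunit that targets the complex to centromeres, and changed by -0.57, -1.06 and -1.51 (-1.75 without HG3). CDCA8 encodes borealin of the same complex and changed by -0.52, -0.87 and -1.24 (-1.31 without HG3). INCENP (ENSG00000149503, chromosome 11, 61891470 to 61920641, plus strand), the scaffold that binds and activates Aurora B, had one of the smallest falls in ZR-75-30, where it read 299, 340, 326 and 310 at low and 223, 267, 244 and 234 at high glucose. Its log2 change there was -0.40 ± 0.06 (adjusted p = 4e-05), beside -0.39 in MDA-MB-175 and -1.17 in HCC1500 (-0.97 without HG3).

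All 8 genes of the checkpoint, APC/C activation and separase group fell in both ZR-75-30 and MDA-MB-175, and 7 did in HCC1500, where PTTG1 was not called. BUB1 (ENSG00000169679, chromosome 2, 111395105 to 111435640, minus strand), a checkpoint kinase of the kinetochore, was at opposite ends of the range in these lines. In MDA-MB-175 its cultures read 547, 543, 573 and 574 at low and 503, 470, 492 and 494 at high glucose, which did not overlap, and its change of -0.19 ± 0.04 (adjusted p = 0.00485) was the second smallest. In ZR-75-30 it changed by -0.60 ± 0.06. In HCC1500 it went from 257 ± 9.7 to 63.8 ± 11.9 (SD, n = 4), with HG3 at 46, a change of -2.01 ± 0.15, or -1.86 ± 0.06 without HG3. The HCC1500 response was lower than that of MDA-MB-175 by a difference of -1.82 ± 0.14 (adjusted p = 3.8e-09), or -1.67 ± 0.08 without HG3.

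ESPL1 (ENSG00000135476, chromosome 12, 53662083 to 53687422, plus strand) encodes separase, and its inhibitor securin is encoded by PTTG1 (ENSG00000164611, chromosome 5, 159848862 to 159855746, plus strand). ESPL1 was among the largest falls of ZR-75-30, where it read 315, 329, 333 and 263 at low and 127, 140, 140 and 110 at high glucose, a log2 change of -1.26 ± 0.09 (adjusted p = 1.2e-09). It changed by -0.51 in MDA-MB-175 and by -1.93 in HCC1500 (-1.84 without HG3). PTTG1 was among the smallest falls in ZR-75-30, where it read 320, 278, 287 and 334 and then 225, 252, 257 and 238, a change of -0.32 ± 0.07 (adjusted p = 5.4e-04). In HCC1500 it read 142, 161, 158 and 158 at low and 79.6, 88.1, 186 and 80.3 at high glucose, so that HG3 lay above all low glucose cultures and the other 3 below them. The change of -0.61 ± 0.26 was not called (adjusted p = 0.136), and without HG3 it was -0.90 ± 0.07 (adjusted p = 7.6e-09). PTTG1 has near-identical copies in the genome that could share its reads, so its values are uncertain.

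The other genes of that group were called in each line. BUB1B, which encodes the checkpoint protein BubR1, changed by -0.43, -1.20 and -1.73 (-1.80 without HG3), and TTK, the checkpoint kinase MPS1, by -0.56, -0.77 and -1.43 (-1.35). MAD2L1, which encodes the MAD2 protein that holds the APC/C activator CDC20, changed by -0.43 in MDA-MB-175 and -0.75 in ZR-75-30 and kept 51.5% of its level in HCC1500 (-1.22 without HG3). CDC20 itself changed by -0.60, -0.50 and -1.22, and UBE2C, the ubiquitin-conjugating enzyme that works with the APC/C, by -0.55, -0.56 and -1.54. HG3 was high for these last genes, at 248 for CDC20 beside 104 to 110 in the other high glucose cultures and at 198 for UBE2C beside 76.2 to 88.6. Without it, CDC20 changed by -1.52 and UBE2C by -1.85 in HCC1500.

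All 6 kinetochore and centromere genes fell in each line. CENPE (ENSG00000138778, chromosome 4, 104026506 to 104119602, minus strand), a kinetochore motor that moves chromosomes to the spindle equator, was with PLK1 the largest fall of MDA-MB-175, where it read 401, 436, 432 and 475 at low and 263, 282, 283 and 274 at high glucose. The log2 changes were -0.66 ± 0.06 (adjusted p = 3.8e-07) there, -0.93 in ZR-75-30 and -2.05 in HCC1500 (-1.87 without HG3). SPC25 (ENSG00000152253, chromosome 2, 169690642 to 169769881, minus strand), a subunit of the NDC80 complex that binds microtubules, had the largest fall of ZR-75-30. It read 105, 97.8, 96.8 and 149 at low and 41.7, 37.1, 36.5 and 34.3 at high glucose, a change of -1.54 ± 0.13 (adjusted p = 2.7e-08). Low glucose replicate 4 stood above the other cultures of its group, and the log2 change was -1.40 without it. In HCC1500 SPC25 changed by -1.43 ± 0.14 (-1.51 without HG3), and the responses of ZR-75-30 and HCC1500 differed by 0.11 ± 0.17 (adjusted p = 0.691), or 0.03 ± 0.16 without HG3. NDC80 and NUF2, subunits of the same complex, changed by -0.56 and -0.41 in MDA-MB-175, by -1.20 and -0.82 in ZR-75-30 and by -1.74 each in HCC1500 (-2.00 and -1.83 without HG3). CENPA, the histone variant that marks centromeres, changed by -0.42, -0.61 and -1.68 (-1.73 without HG3), and CENPF, a large kinetochore protein of late G2, by -0.48, -0.76 and -1.73 (-1.50).

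All 9 spindle assembly factors and motors fell in each line. ASPM (ENSG00000066279, chromosome 1, 197053251 to 197115824, minus strand), a spindle pole protein, was among the largest falls of HCC1500 only with HG3 kept. There it read 270, 245, 238 and 268 at low and 82.6, 72.6, 23 and 72.9 at high glucose. HG3, at 23, lay far below the others. The change was -2.15 ± 0.36 (adjusted p = 0.00394) with HG3 and -1.73 ± 0.07 (adjusted p = 4.7e-13) without it. Without HG3, DLGAP5, KIF2C and HMMR of this group had larger falls. In MDA-MB-175 and ZR-75-30 ASPM changed by -0.43 and -0.66. In MDA-MB-175 the remaining genes changed by -0.41 to -0.54. In ZR-75-30 they ran from -0.40 for KIF2C, a microtubule-depolymerizing kinesin, to -1.08 for DLGAP5, which stabilizes kinetochore fibers, with KIF11, the kinesin that separates the spindle poles, at -1.04, KIFC1, a minus-end motor, at -0.94 and TPX2, the spindle activator of Aurora A, at -0.92. In HCC1500 they ran from -1.14 for NUSAP1, which bundles spindle microtubules, to -1.95 for DLGAP5, and TPX2 (-1.23), KIF11 (-1.42), KIFC1 (-1.51) and KIF2C (-1.63) lay between. Without HG3 these were -1.18 for NUSAP1, -1.82 for DLGAP5, -1.24 for TPX2, -1.34 for KIF11, -1.62 for KIFC1 and -1.77 for KIF2C.

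All 7 midzone and cytokinesis genes fell in each line. KIF20A (ENSG00000112984, chromosome 5, 137514408 to 137523412, plus strand), a kinesin that brings the passenger complex to the midzone, was among the largest falls of both MDA-MB-175 and HCC1500. In MDA-MB-175 it read 704, 726, 703 and 697 at low and 461, 470, 431 and 447 at high glucose, a log2 change of -0.65 ± 0.04 (adjusted p = 2.6e-08). In HCC1500 it read 243, 245, 250 and 245 and then 56, 45.3, 38.6 and 58.2, a change of -2.31 ± 0.14 (adjusted p = 4.3e-05) that was the largest fall of the 50 genes, and -2.20 ± 0.08 without HG3. In ZR-75-30 KIF20A changed by -0.67, so that the difference between MDA-MB-175 and ZR-75-30 was -0.02 ± 0.13 (adjusted p = 0.961) and HCC1500 was lower than ZR-75-30 by a difference of -1.64 ± 0.13 (adjusted p = 4.5e-09), or -1.53 ± 0.09 without HG3. KIF4A, a chromosome-bound motor that shortens midzone microtubules, changed by -0.57, -1.07 and -1.66 (-1.65 without HG3), and KIF23, the motor of centralspindlin, by -0.51, -0.83 and -1.42 (-1.33). RACGAP1, the other centralspindlin subunit, changed by -0.48, -0.82 and -0.99 (-1.04 without HG3), ECT2, the exchange factor that activates RhoA at the furrow, by -0.32, -0.73 and -1.13 (-0.99), and ANLN, the furrow scaffold anillin, by -0.49, -0.48 and -1.59 (-1.42). KIF4A and RACGAP1 have near-identical copies in the genome and are uncertain.

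All 5 condensation and lamina genes fell in each line. TOP2A (ENSG00000131747, chromosome 17, 38544777 to 38574148, minus strand), topoisomerase II alpha, which untangles sister DNA, averaged 2627 ± 153 and then 1949 ± 35.3 (SD, n = 4) in MDA-MB-175, 1087 ± 29.7 and then 654 ± 21 in ZR-75-30, and 805 ± 11.2 and then 248 ± 52.4 for HCC1500, with HG3 at 169 beside 270 to 277. TOP2A thus changed by -0.43, -0.73 and -1.72 (adjusted p at most 2e-04), and by -1.55 without HG3. LMNB1 (ENSG00000113368, chromosome 5, 126112315 to 126172712, plus strand), lamin B1 of the nuclear envelope, was among the largest falls of ZR-75-30, where it read 588, 578, 599 and 640 at low and 216, 242, 215 and 239 at high glucose. Its change of -1.39 ± 0.05 (adjusted p = 6.7e-13) was close to the -1.34 ± 0.07 of HCC1500 (difference 0.05 ± 0.07, adjusted p = 0.66), which was -1.36 without HG3, with -0.51 in MDA-MB-175. SMC4 (ENSG00000113810, chromosome 3, 160117062 to 160152742, plus strand), the ATPase shared by both condensins, had one of the smallest falls of HCC1500, where it read 684, 629, 672 and 658 at low and 472, 477, 316 and 460 at high glucose, a change of -0.63 ± 0.14 (adjusted p = 0.0124) and -0.49 ± 0.04 (adjusted p = 3.2e-09) without HG3. The condensin I subunits NCAPG and NCAPH had larger falls there, at -1.75 and -1.55 (-1.79 and -1.48 without HG3), and changed by -1.01 and -0.80 in ZR-75-30 and by -0.36 and -0.51 in MDA-MB-175.

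Whether the 3 lines responded by different amounts was tested in 1 model over all 24 samples. The F test called a difference for 45 of the 50 genes, where 29.3% of all 18144 genes were called, and for all 50 without HG3 (48.6%). The 5 not called with HG3 were CCNB1, MAD2L1, CDC20, PTTG1 and SMC4. The response of HCC1500 was lower than that of MDA-MB-175 for 45 genes and higher for 1 (11.3% and 6.46% of all genes), and lower than that of ZR-75-30 for 39 and higher for 1 (15.2% and 9.99%), the higher gene being CDC25B in both. The response of ZR-75-30 was lower than that of MDA-MB-175 for 18 genes and higher for none (5.54% and 5.64%). Without HG3 those counts were 48 and 1 (21.1% and 11.3%), 46 and 2 (25.6% and 14.9%) and 32 and none (12.6% and 13.3%). Falls were ordered HCC1500, ZR-75-30, MDA-MB-175 from largest to smallest in 41 genes, with or without HG3. The 9 exceptions, the same in both cases, were CDC25B, PLK1, CDC20, PTTG1, SPC25, KIF2C, ANLN, SMC4 and LMNB1. The share of all genes with this order was not counted.

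With HG3 kept, the smallest interaction p-values were those of PRC1, SPAG5 and HMMR, in which HG3 lay close to the other cultures. Without HG3 this order did not hold. By the same F test, the adjusted p was then 5.8e-16 for PRC1, 8.4e-13 for SPAG5 and 2.8e-12 for HMMR. BUB1 (7.1e-14) and TOP2A (9.3e-14) were below SPAG5, and KIF20A and PLK1 (1.6e-12 each) below HMMR. PRC1 (ENSG00000198901, chromosome 15, 91509270 to 91538859, minus strand), which crosslinks midzone microtubules, read 1176, 1133, 1180 and 1194 at low and 868, 903, 887 and 914 at high glucose in MDA-MB-175, and 1056, 1066, 1005 and 1069 and then 699, 699, 708 and 694 in ZR-75-30. In HCC1500 it read 838, 853, 848 and 784 and then 261, 247, 276 and 252. It kept 76.3%, 66.7% and 31.2% of its low glucose level (log2 changes -0.39, -0.58 and -1.68, the last -1.71 without HG3, interaction adjusted p = 3e-12). PRC1 shares 3181 of its 5523 exon bases with another annotated gene on its strand and is uncertain.

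SPAG5 (ENSG00000076382, chromosome 17, 26904583 to 26926043, minus strand), the spindle protein astrin, read 732, 729, 797 and 743 at low and 597, 567, 515 and 546 at high glucose in MDA-MB-175, and 491, 460, 444 and 493 and then 149, 152, 150 and 137 in HCC1500. In ZR-75-30 it read 4186, 4206, 4135 and 3813 and then 2747, 2858, 2822 and 2713, far above both other lines in each condition. On the log2 scale the changes were -0.43, -0.55 and -1.68 (-1.69 without HG3) in the order MDA-MB-175, ZR-75-30, HCC1500 (interaction adjusted p = 1e-10). HMMR (ENSG00000072571, chromosome 5, 162887209 to 162918947, plus strand), a spindle and hyaluronan-binding protein, read 361, 340, 348 and 368 and then 235, 249, 247 and 240 in MDA-MB-175, and 267, 251, 260 and 273 and then 156, 146, 151 and 159 in ZR-75-30. In HCC1500 it read 150, 155, 148 and 146 and then 42.5, 46.3, 46.8 and 42.5. HMMR changed by -0.54, -0.78 and -1.73 (-1.75 without HG3, interaction adjusted p = 3.8e-10).

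The size of the falls was compared between lines by Spearman correlation over the 50 genes. It was 0.28 between HCC1500 and ZR-75-30 (Pearson 0.35), 0.11 between HCC1500 and MDA-MB-175 (0.27) and 0.11 between ZR-75-30 and MDA-MB-175 (0.16). With HCC1500 taken without HG3, the first 2 Spearman values were 0.30 and 0.18. These are descriptions across genes, which are not independent replicates, and the lines share no control cultures. No gene was among the 3 largest falls of all 3 lines, and KIF20A was among those of MDA-MB-175 and HCC1500.

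HG3 departed from its group in a way that followed gene length. Across the 50 genes the log2 difference between HG3 and the mean of the other 3 high glucose cultures ran from -1.68 for ASPM to 1.25 for UBE2C, with a Spearman correlation with exon length of -0.74 (-0.54 across 13021 genes, which are not independent). In the other 23 samples, compared with their own groups in the same way, this correlation ran from -0.49 to 0.47 over the 50 genes. The 25 longer genes had a median difference of -0.33 and the 25 shorter ones of 0.42. With HG3, falls in HCC1500 were larger for long genes such as MKI67, ASPM, CENPE and CENPF and smaller for short genes such as CDC20, UBE2C, PTTG1 and AURKB than without it.

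**Figure D4:**
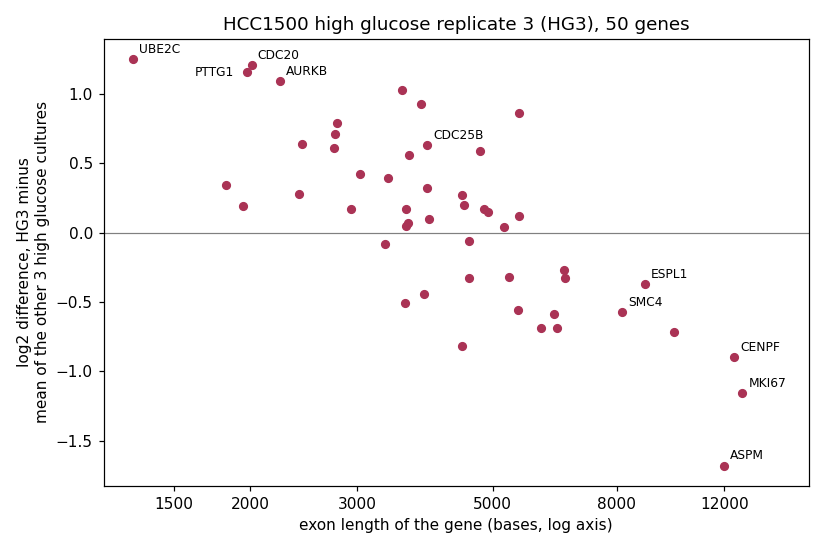
Log2 difference between HG3 and the mean of the other 3 HCC1500 high glucose cultures (vertical axis) against exon length in bases (horizontal log axis), with 1 point for each of the 50 genes. Points run from UBE2C at 1.25 on the short side to ASPM at -1.68 on the long side.

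At low glucose the lines already differed in the levels of these genes. MDA-MB-175 had the highest mean for 35 of the 50 genes and HCC1500 the lowest for 40, and the same was not counted over all genes. In a model of the 12 low glucose samples, 45 genes were lower and 2 higher in HCC1500 than in MDA-MB-175 (38.4% and 42.2% of all 17739 genes), 39 lower and 6 higher in HCC1500 than in ZR-75-30 (32.4% and 48%), and 32 lower and 9 higher in ZR-75-30 than in MDA-MB-175 (44.3% and 28.8%). The median log2 differences were -1.05, -0.77 and -0.27 in that order, beside 0.06, 0.25 and -0.18 over all genes. The last of these member medians was thus close to that of all genes. The size and the split depended on how samples were scaled. After rescaling to CPM the counts were 44 lower and 5 higher, 31 and 13, and 40 and 4, with medians of -0.91, -0.40 and -0.50 for the 50 genes and of 0.15, 0.46 and -0.30 over all genes. Of all 16053 genes then tested, 5897 were called lower and 7757 higher, 4153 and 9540, and 9008 and 3629. After median-of-ratios rescaling the counts among the 50 genes were 45 and 2, 44 and 4, and 26 and 12, with medians of -1.10, -0.91 and -0.17 beside 0.02, 0.12 and -0.10. Of all 17739 genes, 7040 were then called lower and 7235 higher, 6438 and 7783, and 7228 and 5774.

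**Figure D5:**
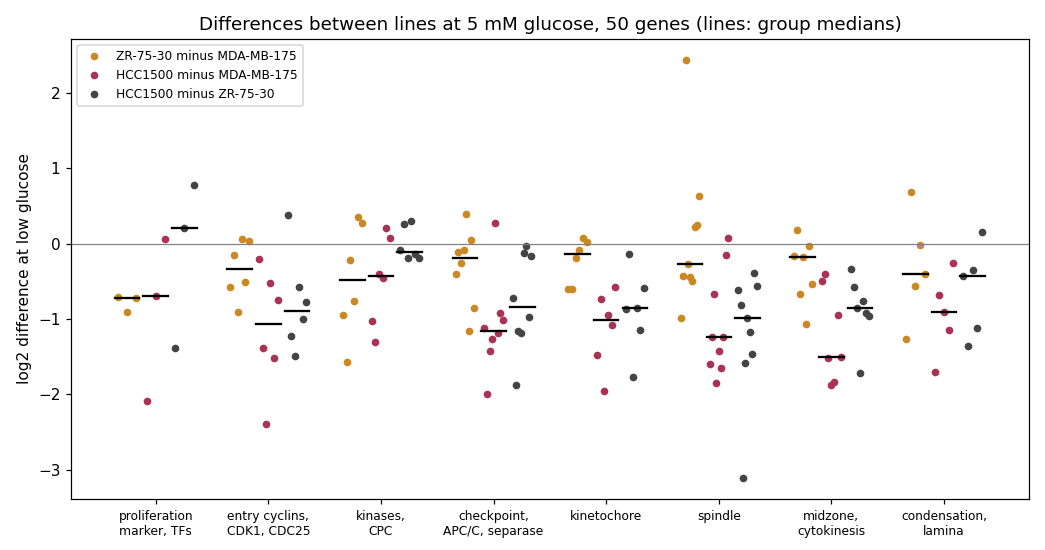
Log2 difference between lines at 5 mM glucose for each of the 50 genes by role, with orange points for ZR-75-30 minus MDA-MB-175, red for HCC1500 minus MDA-MB-175 and dark gray for HCC1500 minus ZR-75-30, and black lines for medians within a role. Most red and gray points lie below 0, and SPAG5 stands out at 2.44 (orange) and -3.11 (gray).

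Some single genes, chosen after their values were seen, show the spread at low glucose. CCNA2 was at 147 ± 9.43 (SD, n = 4) in HCC1500, 413 ± 13.8 in ZR-75-30 and 772 ± 32.3 in MDA-MB-175, and MKI67 at 761 ± 29.1, 1988 ± 110 and 3255 ± 155. SPAG5 was at 4085 ± 184 in ZR-75-30, against 750 ± 31.8 in MDA-MB-175 and 472 ± 23.8 in HCC1500, a log2 difference of 2.44 ± 0.04 between ZR-75-30 and MDA-MB-175 (adjusted p = 1.1e-15) and of -3.11 ± 0.04 between HCC1500 and ZR-75-30. AURKA was higher in MDA-MB-175, at 894 ± 35.9, than in ZR-75-30 and HCC1500, at 300 ± 7.17 and 361 ± 15.3. MYBL2 did not follow the common order. It was at 1210 ± 55.5 in HCC1500 and 1162 ± 95.4 in MDA-MB-175 (difference 0.06 ± 0.05, adjusted p = 0.319) and at 703 ± 27 in ZR-75-30. Each line comes from 1 tumor, so the effect of a line and of its origin cannot be told apart.

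The promoters of these genes were searched for the letters of the cell cycle genes homology region (CHR), TTTGAA, and of the CCAAT box, CCAAT, each on both strands, in windows from 250 bases before to 50 after an annotated start (RefSeq, GRCh38.p14). These are the known promoter elements of G2 and M genes, bound by the DREAM and B-MYB complexes and by NF-Y. Windows were given for 43 of the 50 genes, and FOXM1, AURKA, BIRC5, TTK, UBE2C, TPX2 and RACGAP1 had none. At least 1 window held TTTGAA for 31 of the 43 (72.1%), against 18.2% of all 27305 genes with a window, and CCAAT for 33 (76.7%), against 39.7%. Both were held by 24 (55.8%), against 7.26%. The share with TTTGAA was 64.3% in 42 other mitosis genes. It was 25% each in 16 genes of the APC/C list (its core with FZR1 and UBE2S) and in 8 genes of cohesin and its regulators. A match is a run of letters and not a measured site. In HCC1500 the median log2 change was -1.68 for the 31 genes with TTTGAA and -1.59 for the 12 without it, and the order turned without HG3, at -1.62 and -1.68. The medians were -0.78 and -0.74 for ZR-75-30, and -0.43 and -0.51 for MDA-MB-175. The windows of CDC25B, AURKB and PTTG1, looked up after their values were seen, held CCAAT and not TTTGAA.

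The 4 windows below, 1 per role, belong to the genes with the largest mean fall over the 3 lines, with HG3 kept, among those with TTTGAA. Without HG3, NDC80 had a larger mean fall than SPC25, which has the same role, and KIF4A a slightly larger one than MKI67. They are shown 5′ to 3′ in the direction of the gene, with capitals for TTTGAA or its complement TTCAAA and for CCAAT or its complement ATTGG. ESPL1 lies at chr12:53268049-53268348 on the plus strand, SPC25 at chr2:168890381-168890680, DLGAP5 at chr14:55191536-55191835 and MKI67 at chr10:128126374-128126673, the last 3 on the minus strand.
ESPL1: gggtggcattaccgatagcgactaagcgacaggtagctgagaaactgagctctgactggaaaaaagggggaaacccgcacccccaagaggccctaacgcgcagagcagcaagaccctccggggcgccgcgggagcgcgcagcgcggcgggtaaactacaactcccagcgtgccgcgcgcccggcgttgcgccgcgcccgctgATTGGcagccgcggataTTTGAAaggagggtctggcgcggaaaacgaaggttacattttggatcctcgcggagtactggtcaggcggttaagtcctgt
SPC25: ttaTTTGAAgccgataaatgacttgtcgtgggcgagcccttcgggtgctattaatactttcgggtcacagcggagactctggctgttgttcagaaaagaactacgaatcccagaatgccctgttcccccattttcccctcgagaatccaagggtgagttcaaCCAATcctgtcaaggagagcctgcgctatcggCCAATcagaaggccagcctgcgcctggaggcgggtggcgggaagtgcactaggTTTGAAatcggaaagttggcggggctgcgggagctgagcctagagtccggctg
DLGAP5: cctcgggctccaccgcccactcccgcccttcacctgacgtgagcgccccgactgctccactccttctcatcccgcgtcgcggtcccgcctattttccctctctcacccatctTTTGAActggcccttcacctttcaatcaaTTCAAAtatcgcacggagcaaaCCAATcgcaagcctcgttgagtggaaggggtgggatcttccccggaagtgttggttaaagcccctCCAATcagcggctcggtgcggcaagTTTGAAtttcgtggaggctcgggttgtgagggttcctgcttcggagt
MKI67: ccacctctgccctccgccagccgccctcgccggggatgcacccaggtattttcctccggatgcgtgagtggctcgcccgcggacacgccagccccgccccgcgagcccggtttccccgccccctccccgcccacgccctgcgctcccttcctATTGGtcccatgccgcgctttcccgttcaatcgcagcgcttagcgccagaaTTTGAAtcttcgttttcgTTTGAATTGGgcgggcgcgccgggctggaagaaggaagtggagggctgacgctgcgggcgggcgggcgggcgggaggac
In ESPL1 the run TTTGAA starts 31 bases before the start site and ATTGG 48 bases before it. MKI67 has TTTGAA at 47 and 29 bases before the start, and the last A of the second overlaps an ATTGG that begins 24 bases before the start. SPC25 has a TTTGAA only 3 bases before its start and another at the far end of the window, with CCAAT at 88 and 56 bases before the start, and DLGAP5 has 3 matches to TTTGAA or TTCAAA. The mean log2 change over the 3 lines, with HG3 kept, was -1.23 for ESPL1 and -1.18 for each of the others.

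Other genes of the same processes were read from further lists, also chosen with earlier results of these data known. Of 56 other mitosis genes, 48 fell in HCC1500 (56 without HG3), 54 in ZR-75-30 and 50 in MDA-MB-175, where 13% (37.7% without HG3), 22.7% and 13.7% of all genes were called lower. The median log2 changes were -1.12 (-1.27 without HG3), -0.86 and -0.41. The falls were largest for KIF18A in MDA-MB-175 (-0.69), CDC25A in ZR-75-30 (-1.75) and GTSE1 in HCC1500 (-2.12, or -2.14 without HG3). The only rise among them was CKS2 in ZR-75-30, from 425 ± 12.8 to 596 ± 10 (SD, n = 4), a log2 change of 0.49. CKS2 encodes a small protein that binds CDK1.

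Genes of the APC/C and of cohesin had medians near 0. In a list of 16 genes of the APC/C core with FZR1 and UBE2S, 3 fell in MDA-MB-175, 6 fell and 1 rose in ZR-75-30, and 1 fell in HCC1500 (10 fell and 1 rose without HG3). Of all genes, 13% were called lower and 7.46% higher in HCC1500 (37.7% and 20.9% without HG3), 22.7% and 23.4% in ZR-75-30, and 13.7% and 11.9% in MDA-MB-175, and the same shares stand beside the cohesin counts. The median log2 changes were -0.06, -0.13 and -0.09 (-0.15 without HG3), and single changes ran from -0.55 to 0.42 over the 3 lines, with -0.65 for ANAPC15 in HCC1500 without HG3. ANAPC7, a scaffold subunit, had the largest fall of this list in ZR-75-30, from 728 ± 13.9 to 497 ± 26 (SD, n = 4), a log2 change of -0.55. Of 11 genes of cohesin and its regulators, 5 fell in ZR-75-30, 2 in MDA-MB-175 and 0 in HCC1500, and none rose. Without HG3, 4 fell and 5 rose in HCC1500. The medians were -0.10, -0.08 and -0.06 (0.02 without HG3), and single changes ran from -0.59 to 0.28 over the lines. SMC1A, a cohesin ATPase, changed by -0.55 in ZR-75-30, and NIPBL, the cohesin loader, by 0.42 in HCC1500 without HG3.

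The sources do not say whether strand was used in counting. Of the 50 genes, 20 share exon bases with another gene, 5 of them on the same strand. In FOXM1, PLK1, BUB1B, SPAG5, NUSAP1, KIFC1, PRC1, NCAPG and SMC4 the shared bases exceed 10% of the exon length, and their values are uncertain to that extent.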

How the data were processed

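RNA of 24 cultures (4 per line and glucose concentration) was sequenced on an Illumina HiSeq. The authors deposited 1 table of normalized values, treated here as a signal. Within a sample, all values were whole reads over 1 common factor (100.00% of values whole, tolerance 0.02). The labels name edgeR and hg38. The study's methods name TopHat and hg19 for tumor samples and CPM with TMM factors from edgeR as the input of its analyses. Whether these apply to the deposited table is not stated, and the counter and strand setting are not given in the sources used here.

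The test was limma 3.58.1 (R 4.3.3, eBayes with trend) applied to log2(value + 1), keeping genes of at least 0.5 in at least 4 samples. Each line was fitted alone (8 samples), the low glucose cultures together (12), and the line by glucose interaction over 24. Fold changes are on the log2(value + 1) scale. p-values were Benjamini-Hochberg adjusted over all genes and called under 0.05. The genes and lists were chosen with earlier results of these data known. Named genes were 7 fixed proliferation genes, the 3 largest and 3 smallest falls per line and the 3 smallest interaction p-values. Alternatives were pseudocounts of 0.5 and 5, other filters, rescaling, sample weights, a replicate block, leaving out each culture, and edgeR 4.0.16 and DESeq2 1.42.0 on the recovered reads. Rescaling to the mean total and pairs of choices without HG3 were added after seeing the data. Scripts were tested on simulated data. Gene coordinates are GENCODE 44 on GRCh37.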

Additional observations from a re-analysis of the deposited data

Results flagged for a closer look

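Single cultures stood apart from their group by Dixon's test at the 95% level in 28 of 300 groups of 4 cultures (50 genes in 6 groups), where chance flags about 1 in 20. Of the 18 in HCC1500 high glucose, 17 were HG3, so that most of the 28 flags were those of HG3. In the other groups there were 5 of 50 in ZR-75-30 low glucose, 2 in MDA-MB-175 high glucose and 1 in each of the rest. Among the named genes HG3 was apart for MKI67 (98.8), MYBL2 (698), CCNB1 (807), CDC25B (506), PLK1 (102), BUB1 (46), PTTG1 (186), ASPM (23), TOP2A (169) and SMC4 (316). Other cultures apart were ZR-75-30 low glucose replicate 1 for CDK1 (924), replicate 3 for BUB1 (412) and replicate 4 for SPC25 (149), and HCC1500 low glucose replicate 1 for PTTG1 (142).

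The glucose response differed between the 3 lines for 19 of the named genes by limma's F test of the interaction. The adjusted p was 5.0e-05 for MKI67, 1.3e-09 for FOXM1, 1.3e-04 for MYBL2, 9.0e-07 for CDK1, 7.2e-07 for PLK1 and 9.6e-07 for TOP2A. It was 2.1e-05 for CENPE, 1.4e-09 for KIF20A, 6.9e-04 for AURKB, 4.3e-09 for BUB1, 0.0043 for CDC25B, 2.2e-04 for SPC25 and 5.5e-09 for LMNB1. It was 2.4e-07 for ESPL1, 0.00247 for INCENP, 5.5e-04 for ASPM, 3.0e-12 for PRC1, 1.0e-10 for SPAG5 and 3.8e-10 for HMMR. Without HG3 the adjusted p of these 19 was at most 3.5e-05. Among these, only CDC25B changed in the opposite direction in HCC1500.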

How the results depend on the processing

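None of the 22 named genes changed direction within a line under the alternatives run. The median log2 change moved by more than the spread between cultures to -0.46 in MDA-MB-175 with median-of-ratios rescaling and with edgeR, and in ZR-75-30 to -0.82 with rescaling to the mean total and -0.81 with edgeR. In HCC1500 it moved to -1.48 with a pseudocount of 5, -1.52 with median-of-ratios, -1.65 with the mean total, -1.48 without HG3 with median-of-ratios, -1.51 with edgeR and -1.49 with DESeq2. The count called higher in HCC1500 was 1 (CDC25B) in place of 0 with median-of-ratios, CPM, sample weights, edgeR and DESeq2, and without HG3 alone, with median-of-ratios or with the replicate block. At low glucose, CPM and the mean total gave 4 genes higher in ZR-75-30 than in MDA-MB-175, 5 higher in HCC1500 than in MDA-MB-175 and 13 higher in HCC1500 than in ZR-75-30. Of all genes, CPM called 3629, 7757 and 9540 higher in that order (16053 tested), and the mean total 3729, 8243 and 10260 (17683 tested). Sample weights gave 32 lower and 1 higher responses of ZR-75-30 against MDA-MB-175, and 2 higher of HCC1500 against ZR-75-30. The cause of these shifts was not tested.

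Leaving out 1 culture at a time gave 48 to 50 calls and medians of -0.49 to -0.46 in MDA-MB-175, 50 calls and -0.80 to -0.77 in ZR-75-30, and 48 to 50 calls (48 to 49 lower, 0 to 1 higher) and -1.60 to -1.55 in HCC1500. With all cultures kept, 13.7%, 22.7% and 13% of all genes were called lower in these lines, and 11.9%, 23.4% and 7.46% higher. At low glucose, leaving out 1 culture gave 39 to 41 calls (30 to 32 lower, 9 to 10 higher), 46 to 47 (44 to 45, 2) and 43 to 48 (37 to 42, 6) for ZR-75-30 and HCC1500 against MDA-MB-175 and HCC1500 against ZR-75-30. With all cultures kept, 44.3% of all genes were called lower and 28.8% higher in the first comparison. The shares were 38.4% and 42.2% in the second and 32.4% and 48% in the third. Response differences ran over 15 to 32 lower and 0 higher (ZR-75-30 against MDA-MB-175), 44 to 48 and 1 (HCC1500 against MDA-MB-175), 37 to 46 and 1 to 2 (HCC1500 against ZR-75-30), and the F test over 45 to 50. The 32 and the 2 came from leaving out HG3. With all cultures kept, 5.54% and 5.64%, 11.3% and 6.46%, and 15.2% and 9.99% of all genes were lower and higher, in that order. By the F test 29.3% were called. Without HG3 these shares were 12.6% and 13.3%, 21.1% and 11.3%, 25.6% and 14.9%, and 48.6% by the F test. Among named genes, SMC4 in HCC1500 was not called with median-of-ratios (adjusted p = 0.0598) or edgeR (0.0595), and CDC25B in MDA-MB-175 was not called with no filter (0.0508), median-of-ratios (0.0575) or edgeR (0.0593). AURKB in MDA-MB-175 was called with CPM (0.0363), the mean total (0.0411) and sample weights (0.0279), and without low or high replicate 4 (0.0205 and 0.0485). PTTG1 in HCC1500 was called with CPM (0.0256), the mean total (0.0278) and sample weights (2.84e-08), and without HG3.

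Whether replicate numbers pair the cultures could not be settled from their correlations. Same-numbered cultures correlated at a mean of 0.0184 for HCC1500, 0.0424 for ZR-75-30 and 0.0503 for MDA-MB-175 (from -0.0539 to 0.164). Differently numbered cultures correlated at a mean of -0.00661 for HCC1500, -0.0143 for ZR-75-30 and -0.0167 for MDA-MB-175 (from -0.181 to 0.124). The same-numbered mean was thus slightly higher in each line, but the ranges overlapped and the difference was not tested. With the replicate block, 49, 50 and 48 genes fell, with medians of -0.48, -0.79 and -1.57, and the F test called 45. Shares of all genes called with the block are not given here.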

Other observations

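Among 24 genes of the DREAM, MMB and E2F regulators, which set the timing of cell cycle transcription, 7 fell and 1 rose in MDA-MB-175, 12 fell and 5 rose in ZR-75-30, and 8 fell and 4 rose in HCC1500 (16 and 6 without HG3). Of all genes, 13% were called lower and 7.46% higher in HCC1500 (37.7% and 20.9% without HG3), 22.7% and 23.4% in ZR-75-30, and 13.7% and 11.9% in MDA-MB-175. The median log2 changes were -0.07, -0.23 and -0.28 (-0.19 without HG3). E2F2, an activator E2F, changed by -1.71 in ZR-75-30, -1.46 in HCC1500 (-1.51 without HG3) and -0.40 in MDA-MB-175. E2F7, an atypical repressor E2F, changed by -1.83, -1.01 (-0.73 without HG3) and -0.57. CDKN1A, which encodes the CDK inhibitor p21 and is not itself a DREAM, MMB or E2F factor, is counted in this list. CDKN1A rose in each line and was the 1 gene of the list that rose in MDA-MB-175. It averaged 1384 ± 83.4 and then 1568 ± 61.5 (SD, n = 4) in MDA-MB-175, 534 ± 19.9 and then 1028 ± 51 in ZR-75-30, and 1886 ± 37.3 and then 3714 ± 1120 for HCC1500, where it was 3154 ± 75.8 (n = 3) without HG3. The log2 changes were 0.18, 0.94 and 0.94 (0.74 without HG3), with limma adjusted p of 0.0102, 9.7e-12 and 0.00639.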
